A study of Mus musculus with 9 samples.

Results

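The miR-23, miR-24 and miR-27 microRNAs (miRNAs) are made from a pair of paralogous gene clusters, and their 5 mature forms miR-23a, miR-23b, miR-24, miR-27a and miR-27b were followed in mouse bone marrow after chemotherapy. They were chosen by name, one probe each, from the 582 miRNA probes of a bead array, and all 5 were among the 379 probes bright enough to be tested. The samples were whole marrow from 8 female mice of strain C57Bl6/J, 6 weeks old, with red cells lysed before total RNA was taken. Of these mice, 5 were left untreated and 3 received a single intraperitoneal dose of 5-fluorouracil (5-FU) of 150 mg/kg, 4 days before marrow was collected. 5-FU blocks thymidylate synthesis and kills dividing cells. In marrow as a whole, fewer cells of a type and less RNA per cell cannot be told apart.

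A cluster is copied into one long primary transcript, from which each hairpin is cut and then trimmed to a mature miRNA that lowers the output of messenger RNAs matching its seed. The miR-23a cluster is switched on by the myeloid transcription factor PU.1, and in mice it favours granulocytes and monocytes over B cells. miR-27 is known to act on the messenger of Runx1, a regulator of blood stem cells, and miR-24 on messengers of cell cycle genes. The miR-23b cluster is also used outside blood, including in endothelium.

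RefSeq (GRCm38.p6) gave a mature sequence for 4 of the 5 miRNAs. They are shown because the seeds, bases 2 to 8 and in capitals, set which members can share targets, and because the close likeness of miR-27a and miR-27b bears on how separate the probe signals are. Mir23a, Mir27a and Mir24-2 lie in this order within 334 bases of chromosome 8, measured over the mature sequences, and inside no protein-coding gene. Mir23b, Mir27b and Mir24-1 lie on chromosome 13 inside the protein-coding gene Aopep. Written 5′ to 3′, on the plus strand, the sequences are:
miR-23a, chr8:84208563-84208583: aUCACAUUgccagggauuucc
miR-27a, chr8:84208727-84208747: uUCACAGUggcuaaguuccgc
miR-27b, chr13:63300760-63300780: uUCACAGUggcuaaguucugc
miR-24, chr8:84208875-84208896 and chr13:63301251-63301272: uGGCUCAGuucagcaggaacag
The 2 loci of miR-24 give 1 identical mature sequence, so its probe reads both clusters together. miR-27a and miR-27b share their seed and differ by 1 base, C19U (the base of miR-27a, its position from the 5′ end, then the base of miR-27b). Within the seed, miR-23a and miR-27a differ by U7G alone. Cross-capture between the probes of miR-27a and miR-27b was not tested.

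The mice were profiled on 9 arrays in 2 batches, in which adaptor-ligated, amplified miRNAs were captured on beads and read as fluorescence. The 5 untreated mice were all run in batch 1, together with 5-FU animal 1. That treated mouse was run again in batch 2 beside 5-FU animals 2 and 3, so no untreated mouse was run in batch 2. Precision is limited by how few arrays there are. Summed raw fluorescence ranged from 336483 to 679696 units per array. Each deposited batch 1 column equals the log2 of a raw column, less its background well, plus 1 constant for each of the 2 bead pools. Untreated animal 3 stood apart in the first pool, with a constant of -0.81 against -0.28 to 0.31 in the other 5 columns. Its constant for the second pool, -0.13, lay inside the range of the others, -0.36 to 0.24. All 5 mature probes are in the first pool, so its constant entered each of their values in that mouse. In batch 2 the deposited values also carry an added term that differs between probes and is identical on the 3 arrays, with an SD of 0.48 over 132 probes. Relative to the median of its pool, the term was 0.76 for miR-23a, 0.50 for miR-23b, 0.48 for miR-24, 0.50 for miR-27a and -0.21 for miR-27b. Where this term comes from is not stated in the labels or files.

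In the deposited values the 5 miRNAs were abundant before and after 5-FU, and 4 of the 5 moved by less than 0.34 on the log2 scale without passing the test. miR-27b was the exception and fell to 0.633 of its untreated level. Groups were compared with limma over all 379 tested probes, with Benjamini-Hochberg adjustment. In this fit 1 of 5 members passed at an adjusted p under 0.05, downward, and 0 passed upward (1, miR-23a, at an unadjusted p under 0.05). Over all tested probes, 40.6% passed, 25.1% downward and 15.6% upward. The members' share called downward therefore lay near that of the whole array. The median change was -0.08 over the 5 members and -0.16 over all 379 probes.

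miR-23a, the first miRNA of its cluster, measured 12.47, 12.75, 12.18, 12.48 and 12.48 in untreated animals 1 to 5 on the deposited log2 scale. In 5-FU animals 1 to 3 it measured 12.69, 12.93 and 12.79. Treated mice lay in the upper range, but untreated animal 2 exceeded 5-FU animal 1, so the groups overlapped. The change was 0.33 (SE 0.12, 95% interval 0.04 to 0.63), from 12.47 ± 0.20 (SD, n = 5) to 12.80 ± 0.12 (SD, n = 3), with a limma adjusted p of 0.0738. Without untreated animal 2 it was 0.40 and passed, with a limma adjusted p of 0.0230.

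miR-23b, its paralogue from the other cluster, measured 12.21, 12.31, 11.90, 12.11 and 12.18 in the untreated mice and 12.19, 12.29 and 12.22 after 5-FU. All 3 treated values lay inside the untreated range. The change was 0.09 (SE 0.09, 95% interval -0.12 to 0.31), with a limma adjusted p of 0.448.

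miR-24, the miRNA made from both clusters, measured 12.26, 12.16, 11.97, 12.33 and 12.27 in the untreated mice and 12.17, 12.03 and 12.15 after 5-FU. The treated mice again lay within the untreated range, whose lowest value was that of untreated animal 3. The change was -0.08 (SE 0.09, 95% interval -0.28 to 0.13), with a limma adjusted p of 0.490.

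miR-27a measured 12.35, 12.39, 12.11, 12.43 and 12.31 in the untreated mice and 12.18, 12.07 and 12.17 after 5-FU. Untreated animal 3 lay among the treated mice, and the other 4 untreated mice lay above all of them. The change was -0.18 (SE 0.08, 95% interval -0.36 to 0.0015), from 12.32 ± 0.12 (SD, n = 5) to 12.14 ± 0.06 (SD, n = 3), with a limma adjusted p of 0.105. Without untreated animal 3 it was -0.23 and passed, with a limma adjusted p of 0.0107.

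miR-27b measured 10.91, 10.74, 10.95, 10.86 and 10.91 in the untreated mice and 10.44, 10.02 and 10.19 after 5-FU. Every treated mouse lay below every untreated mouse, which held for 1 of the 5 members and for 25.6% of all tested probes in this direction. It fell by 0.66 on the log2 scale (SE 0.10, 95% interval -0.89 to -0.43), from 10.87 ± 0.08 (SD, n = 5) to 10.22 ± 0.21 (SD, n = 3), with a limma adjusted p of 0.00312. The authors' deposited table gave miR-27b a false discovery rate under the threshold, 0.0220. It gave 0.0646 for miR-23a, 0.0736 for miR-27a, 0.372 for miR-23b and 0.438 for miR-24. These rates cover 168 probes. The authors' 5-FU mean for miR-27b, 10.27, averages all treated arrays, so 5-FU animal 1 enters it with both of its arrays.

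**Figure D1:**
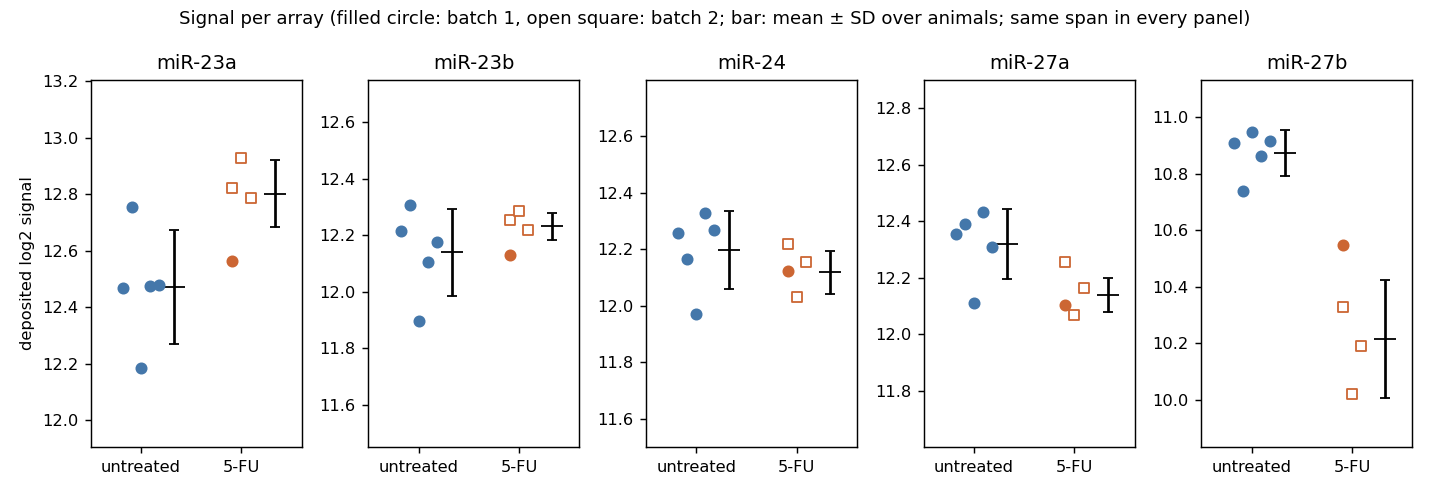
Deposited log2 signal (vertical axis) of the 5 mature miRNAs on each array, with untreated and 5-FU mice side by side, filled circles for batch 1, open squares for batch 2 and bars for the mean ± SD over 5 and 3 animals. miR-27b is the panel in which the groups do not overlap, and the batch 1 array of 5-FU animal 1 lies at 10.55, above the 3 batch 2 arrays.

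The 2 arrays of 5-FU animal 1 gave each member's batch difference in one mouse. miR-27b read 10.55 in batch 1 and 10.33 in batch 2, while miR-23a read 12.56 and 12.82. The shift from batch 1 to batch 2 was -0.22 for miR-27b and 0.26 for miR-23a, and it was 0.13, 0.10 and 0.15 for miR-23b, miR-24 and miR-27a. These shifts have the sign of the added batch 2 term for each of the 5. In raw values scaled to an equal total per bead pool, the same shifts were 0.37 for miR-27b, -0.13 for miR-23a, and between -0.01 and 0.02 for the others. Over the 379 probes the deposited shift had a median of 0 and an SD of 0.35.

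Within batch 1, where 1 treated mouse stands against 5 untreated ones, the change was -0.33 for miR-27b, 0.09 for miR-23a, -0.01 for miR-23b, -0.08 for miR-24 and -0.21 for miR-27a. miR-27b was thus -0.33 with a limma adjusted p of 0.151 there, and 0.179 with batch as a term over the 9 arrays.

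The raw fluorescence lets the members be compared without the added term, though not without other differences between the batches. Raw readings of miR-23a over the 9 arrays ranged from 5602 to 8191 units, and those of miR-27b from 1395 to 3477. Background wells read 15 to 41 units and the highest reading of any miRNA probe was 14764. Scaled to an equal total, the change was -0.20 for miR-27b (limma adjusted p 0.0926) and -0.31 for miR-27a (limma adjusted p 0.0167). The call thus moved from miR-27b to miR-27a. It stayed with miR-27a after quantile scaling (-0.25, limma adjusted p 0.0189), and on the scale of an equal total per bead pool (-0.32, limma adjusted p 0.0224), which was chosen after seeing the data. Scaled to the control beads, neither passed, at -0.25 for miR-27a and -0.13 for miR-27b (limma adjusted p 0.393 and 0.827). miR-27a and miR-27b were lower after 5-FU on all 4 raw scales. miR-23a lay between -0.08 and 0.05 and miR-23b between -0.04 and 0.10 on these scales, so the sign of both depended on the scaling, and miR-24 lay between -0.20 and -0.10.

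**Figure D2:**
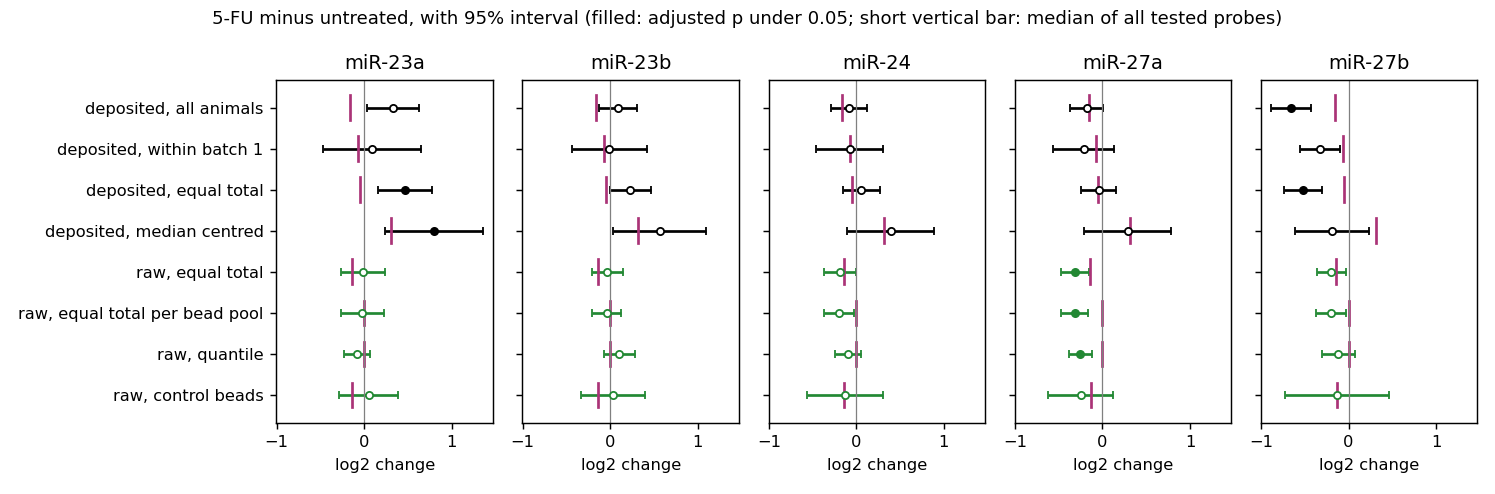
Log2 change after 5-FU (horizontal axis) with its 95% interval for each miRNA under 4 treatments of the deposited values (black) and 4 scalings of the raw values (green), filled where the adjusted p was under 0.05, with the median of all tested probes as a short bar. miR-27b is filled in 2 rows of deposited values, at -0.66 with all animals, and miR-27a in 3 rows of raw values, at -0.31 for an equal total.

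A change can also be read against the rest of the array. Relative to the median of all 379 probes, the deposited changes were 0.49 for miR-23a, 0.25 for miR-23b, 0.08 for miR-24, -0.02 for miR-27a and -0.50 for miR-27b. Bright probes were lower as a group, with a median change of -0.32 over the 158 probes above log2 7. Relative to these the order was the same, from 0.65 for miR-23a to -0.33 for miR-27b. Centring each array on its median adds 1 constant to a whole array, so all changes moved by the same amount. The median of all probes moved to 0.31, and miR-24 (0.39) and miR-27a (0.29) turned sign. miR-23a reached 0.80 and passed (limma adjusted p 0.0283), and miR-27b, at -0.19, did not (limma adjusted p 0.433). Changes relative to the rest of the array were unaffected.

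**Figure D3:**
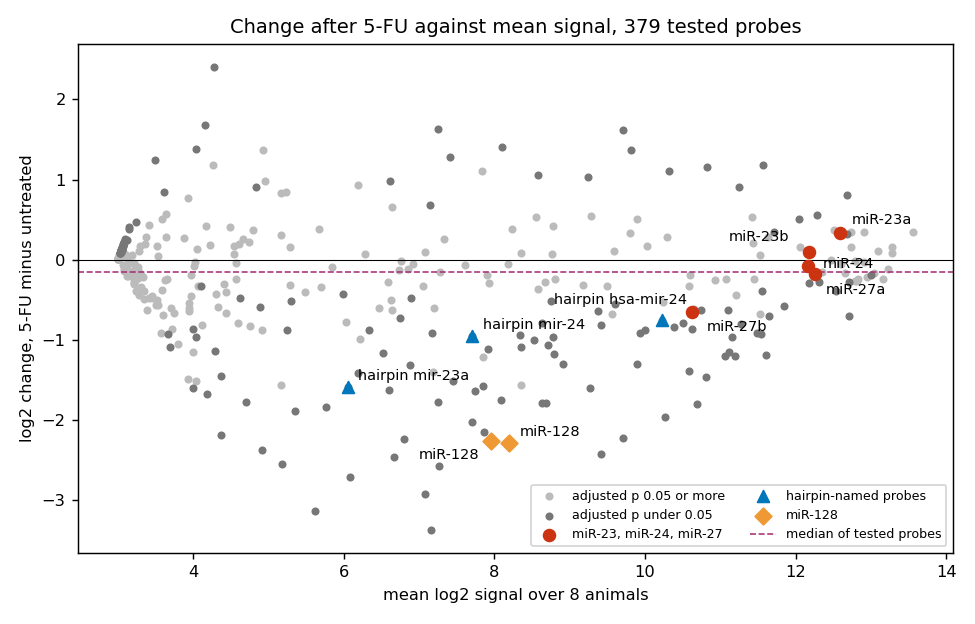
Log2 change after 5-FU (vertical axis) against the mean deposited log2 signal over 8 animals (horizontal axis) for the 379 tested probes, dark where the adjusted p was under 0.05. The 5 mature miRNAs lie among the bright probes, with miR-23a highest at 0.33 and miR-27b lowest at -0.66, while the miR-128 probes lie at -2.29 and -2.27.

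Whether the members of one cluster moved by equal amounts was asked with the difference between their signals inside each mouse. Such a difference is free of any constant added to a whole bead pool, since all 5 probes share the first pool. In the deposited values it is not free of the added batch 2 term, which differs between probes and enters the treated mice. For miR-27a and miR-27b this term was 0.50 and -0.21. The size of a difference reflects the probes, and its shift between groups is what is compared. All 10 pairs were tested by exact permutation over the 56 assignments of animals, two-sided, with adjustment over the 10 pairs. The smallest p this design allows is 0.0357. In the deposited values it became 0.0446 after adjustment, a value that depends on how many of the 10 pairs reach the smallest p.

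Inside the miR-23a cluster, the difference of miR-23a minus miR-27a shifted upward by 0.51 after 5-FU in the deposited values (adjusted exact p 0.0446). miR-24 minus miR-27a lay at -0.10, -0.23, -0.14, -0.11 and -0.04 in untreated animals 1 to 5 and at -0.01, -0.04 and -0.01 after 5-FU. The 3 treated mice lay above all 5 untreated ones, by a small margin at the nearest pair, and the shift was 0.10 (adjusted exact p 0.0446). miR-23a minus miR-24 shifted by 0.41 without passing (adjusted exact p 0.0794). Inside the miR-23b cluster, miR-23b minus miR-27b shifted by 0.75 and miR-24 minus miR-27b by 0.58 in the deposited values (adjusted exact p 0.0446 for each). On the 4 raw scales neither passed, with shifts of 0.15 to 0.22 for miR-23b minus miR-27b (adjusted exact p 0.0893 to 0.446) and of -0.00083 to 0.018 for miR-24 minus miR-27b (adjusted exact p 0.857 to 0.893). miR-23b minus miR-24 shifted by 0.17 and did not pass (adjusted exact p 0.143).

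Across the clusters, the difference of miR-27a minus miR-27b, which have the same seed, lay at 1.45, 1.65, 1.17, 1.57 and 1.40 in the untreated mice and at 1.74, 2.05 and 1.98 after 5-FU. The groups did not overlap and the shift was 0.48 (adjusted exact p 0.0446). In raw values scaled per bead pool the treated mice lay at 1.26 to 1.38, inside the untreated range of 1.17 to 1.65, and the shift was -0.12 (adjusted exact p 0.446). The deposited order of miR-27a and miR-27b thus turned in the raw values, which still hold any difference between batches. On this raw scale 5-FU animal 1 read 0.37 higher in batch 2 for miR-27b and 0.02 higher for miR-27a. Within batch 1, with 1 treated mouse, the shift was 0.11. The part of batch in the turn was not tested. miR-23a minus miR-23b lay at 0.26 to 0.45 untreated and 0.50 to 0.64 after 5-FU in the deposited values, a shift of 0.24 (adjusted exact p 0.0446). Its raw values after 5-FU, 0.31 to 0.38, lay inside the untreated range. The remaining pairs across clusters also passed in the deposited values (adjusted exact p 0.0446), with shifts of 0.99 for miR-23a minus miR-27b and 0.27 for miR-23b minus miR-27a. On the raw scales miR-23a minus miR-27b shifted by 0.034 to 0.18 and did not pass (adjusted exact p 0.446 to 0.857).

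The differences of miR-23a, miR-23b and miR-24 against miR-27a kept their sign on the 4 raw scales, whereas that of miR-27a minus miR-27b turned on all 4. miR-24 minus miR-27a shifted by 0.12 to 0.15 there, miR-23a minus miR-27a by 0.17 to 0.30 and miR-23b minus miR-27a by 0.28 to 0.36. Each had an unadjusted exact p of 0.0357, the smallest possible, on the 4 raw scales. With fewer pairs at that bound the adjusted exact p was 0.0893 or 0.119, so none passed. Equal totals and control beads each add a constant to a whole array, which cancels in a difference, so their shifts are identical. Equal totals per bead pool differ from them only in the background well subtracted. The 4 raw scales are therefore not 4 separate checks of a pair.

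**Figure D4:**
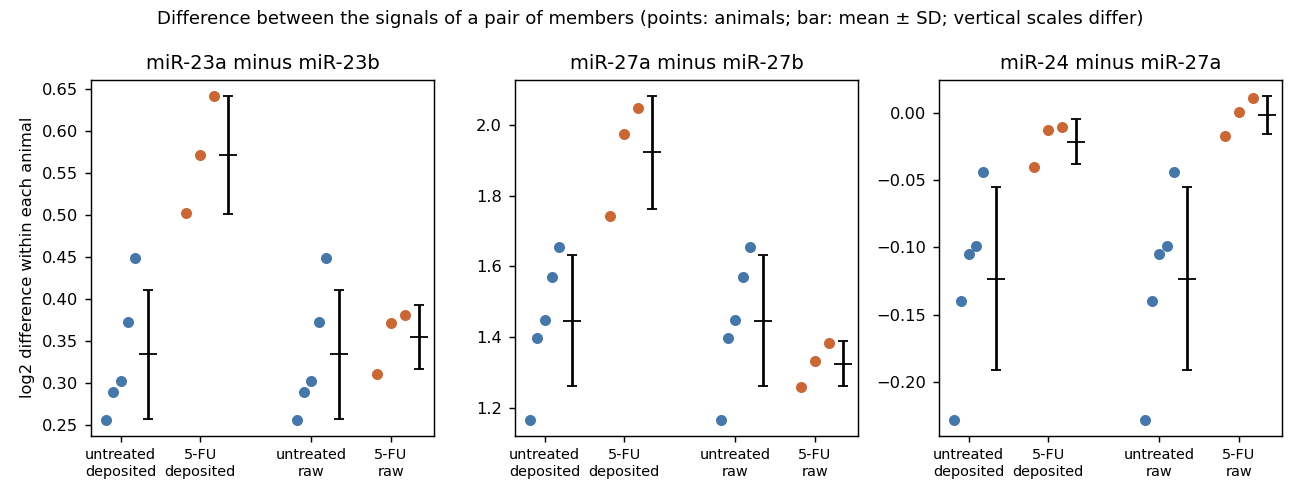
Log2 difference between the signals of a pair of miRNAs inside each animal (vertical axis, scales differ by panel), for untreated and 5-FU mice in the deposited values and in raw values scaled to an equal total per bead pool, with mean ± SD. For miR-27a minus miR-27b the treated mice lie at 1.74 to 2.05 in the deposited values and at 1.26 to 1.38 in the raw values.

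Among the 379 tested probes, 3 are named for the hairpins of these miRNAs and were not part of the choice by mature name. No tested probe was named for the opposite arms. The mouse precursors of miR-23a and miR-24 are shown with the mature miRNA in capitals, since a hairpin-named probe and a mature probe may capture shared bases. Which mir-24 locus is meant is not stated in the labels. The human hairpin, which alone names one of the probes, is not shown. RefSeq (GRCm38.p6) gives, on the plus strand:
Mir23a, chr8:84208518-84208592: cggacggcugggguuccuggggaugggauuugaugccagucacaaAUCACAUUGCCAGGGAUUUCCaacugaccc
Mir24-2, chr8:84208815-84208921: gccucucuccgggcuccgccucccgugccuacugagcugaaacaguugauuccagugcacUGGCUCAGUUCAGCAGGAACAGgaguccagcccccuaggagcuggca
Mir24-1, chr13:63301208-63301275: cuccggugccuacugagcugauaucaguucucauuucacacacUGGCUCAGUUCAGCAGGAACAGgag
Which bases these probes bind is not stated in the labels or files. Their values are a separate readout and are not taken for a mature arm.

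All 3 hairpin-named probes lay lower in every treated mouse than in any untreated mouse, as did 25.6% of all tested probes, and 2 of the 3 passed the test downward, where 25.1% of all tested probes did. The probe for hairpin mir-23a measured 5.95, 6.49, 8.01, 6.74 and 6.05 in the untreated mice and 4.89, 5.19 and 5.08 after 5-FU. Untreated animal 3 was highest, more than a log2 unit above the next mouse. The probe fell by 1.59 on the log2 scale (SE 0.47, limma adjusted p 0.0329), and by 1.25 without untreated animal 3 (limma adjusted p 0.00781). The mature miR-23a of the same hairpin did not fall, with its change of 0.33.

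The probe shared by human and mouse hairpin mir-24 measured 7.71, 7.74, 8.48, 8.21 and 8.15 in the untreated mice and 7.33, 6.78 and 7.20 after 5-FU. It fell by 0.96 on the log2 scale (SE 0.22, limma adjusted p 0.0132), while mature miR-24 changed by -0.08 without passing. The probe named for the human hairpin alone, hsa-mir-24, measured 10.10, 10.14, 11.47, 10.61 and 10.21 untreated and 9.84, 9.61 and 9.81 after 5-FU. Its change of -0.75 did not pass (SE 0.33, limma adjusted p 0.115), and without untreated animal 3 it was -0.51 and passed (limma adjusted p 0.0301).

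Untreated animal 3 was thus highest for all 3 hairpin-named probes and lowest for miR-23a, miR-23b, miR-24 and miR-27a. The probes for hairpin mir-23a and hsa-mir-24 are in the second bead pool, and the one for hairpin mir-24 is in the first. In raw values scaled to an equal total, the changes were -0.90 for hairpin mir-23a, -0.37 for hairpin mir-24 and -0.36 for hsa-mir-24, all in the deposited direction and none past the threshold (limma adjusted p 0.110, 0.321 and 0.204). Hairpin mir-24 was at -0.091 with quantile scaling and -0.12 per bead pool, far less than in the deposited values, and hairpin mir-23a at -0.62 and -0.57, and neither passed. With quantile scaling hsa-mir-24 passed at -0.42 (limma adjusted p 0.0186). Within batch 1 the changes were -1.77 for hairpin mir-23a, -0.63 for hairpin mir-24 and -0.71 for hsa-mir-24. With 1 treated mouse there, no call is read from them.

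**Figure D5:**
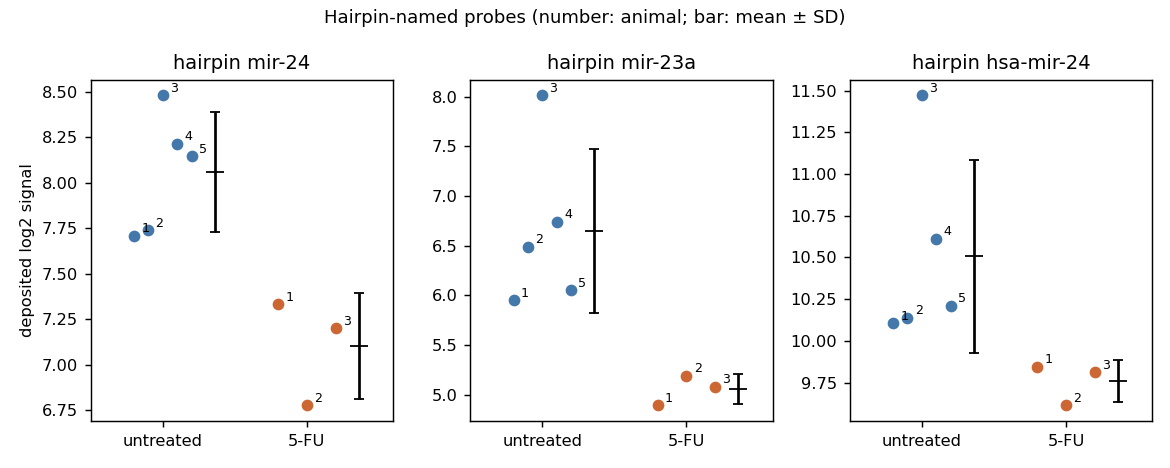
Deposited log2 signal (vertical axis, scales differ by panel) of the 3 hairpin-named probes in each untreated and 5-FU mouse, numbered by animal, with mean ± SD over 5 and 3 animals. Untreated animal 3 is highest in each panel, at 8.48, 8.01 and 11.47, and the groups do not overlap.

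The seed of the members also occurs in other mouse miRNAs of the RefSeq table. Of 5 such names, miR-128-3p was the 1 with a probe on the array. It is known from brain and blood, and its sequence is shown because its bases 1 to 7, in capitals, are the miR-27 seed set 1 base nearer the 5′ end.
miR-128-3p, chr1:128202404-128202424 (plus strand) and chr9:112118644-112118664 (minus strand): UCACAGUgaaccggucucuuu
The first of its 2 probes measured 8.93, 8.67, 9.67, 8.90 and 9.08 in the untreated mice and 6.86, 6.53 and 6.90 after 5-FU. The miRNA fell by 2.29 on the log2 scale with this probe (SE 0.23, limma adjusted p 0.000746) and by 2.27 with the other (SE 0.25, limma adjusted p 0.00104). Both changes were larger than that of miR-27b in the deposited values. On the raw scale of equal totals they were -1.89 and -1.93 (limma adjusted p 0.00318 and 0.00423), where miR-27b was at -0.20. The difference between the changes of miR-128-3p and miR-27b was not tested.

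Other miRNAs known in granulocytes and monocytes or their precursors were set beside the clusters. Of 14 listed names, 12 had a probe under a mouse name, of which 1 rose, 3 fell and 8 did not pass, with a median change of 0.20. Over all 379 probes 15.6% rose and 25.1% fell, so these counts lay near the background. miR-146a, a brake on inflammatory signalling, rose by 0.56 (SE 0.05, limma adjusted p 0.000698). miR-338-3p, on the list though known mostly from neural tissue, fell by 1.79 on the log2 scale (SE 0.14, limma adjusted p 0.000369). These 2 also passed with raw equal totals, at 0.29 and -1.13 (limma adjusted p 0.00247 and 0.00283). miR-130a and miR-125a-5p, known in blood progenitors, fell by 0.55 and 0.51 (limma adjusted p 0.0386 and 0.00104), but lay at 0.05 and -0.04 with raw equal totals. miR-223, the granulocyte miRNA, changed by -0.16 without passing (SE 0.19, limma adjusted p 0.522), so the deposited values of most of the list, like those of 4 of the 5 members, did not pass.

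Markers of the other cells in marrow moved beside these changes, and their part in the members' values was not tested. Their counts stand beside 15.6% of all tested probes that rose and 25.1% that fell. Lymphoid miRNAs fell in 6 of 6 probes, with summed linear signal of 13182 to 15556 in untreated mice and 6345 to 7277 after 5-FU. Their falls ran from miR-181d, at -2.22, to miR-150, at -0.39, and included miR-342-3p at -0.86. miR-150 and miR-342-3p turned sign with raw equal totals, to 0.09 and 0.17. The endothelial pair miR-126-3p and miR-126-5p rose by 0.90 and 1.61, from summed signal of 1983 to 3007 to 4906 to 5555. Of the miR-23b cluster, which endothelium also uses, miR-23b lay within its untreated range after 5-FU and miR-27b below it.

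Of 5 smooth muscle and stroma miRNAs, 2 rose (miR-143 by 1.11 and miR-145 by 1.06), with sums of 1778 to 3229 untreated and 3892 to 4797 after 5-FU. Skeletal muscle miRNAs rose in 3 of 3 probes, led by miR-133b at 1.16, with sums of 4807 to 9663 and 12797 to 13692. Of 3 erythroid miRNAs, miR-451 fell by 0.70 in the deposited values and 2 did not pass, and their sums overlapped, at 18862 to 23511 and 16040 to 19103. The change of miR-451 was -0.0058 within batch 1 and -0.12 with raw equal totals, where it did not pass (limma adjusted p 0.623). miR-223, the single marker of granulocytes and monocytes, ranged from 4993 to 9270 untreated and from 5559 to 6358 after 5-FU. Only probes above the floor in 3 or more animals were tested, so no tested marker could be at the floor in all animals. That absence therefore cannot show which cells were present. Among the tested markers of blood cells, the lowest group mean was 6.51 on the deposited log2 scale, for miR-181c after 5-FU, against a floor of 3. Among those of skeletal muscle it was 8.86, for miR-206 in untreated mice.

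The miRNAs whose profile over the 8 animals was most like that of each member were taken from 119 bright mature probes, by the root mean square difference after each profile was centred on its own mean. For miR-23a these were miR-16 (0.0681), miR-21 (0.0907) and miR-30c (0.106), and for miR-23b they were miR-15a (0.0634), let-7g (0.0707) and let-7a (0.0774). miR-24 was nearest to let-7f (0.0957), miR-142-5p (0.105) and let-7b (0.110), and miR-27a to miR-19b (0.0778), miR-17 (0.0855) and let-7b (0.0887). miR-27b was nearest to miR-107 (0.0938), miR-125a-5p (0.100) and miR-19a (0.102). Among the members themselves, miR-24 and miR-27a had the most similar profiles, at 0.0694, and miR-23a and miR-27b the least, at 0.542. The paralogues miR-23a and miR-23b lay at 0.132 and miR-27a and miR-27b at 0.278. In the deposited values the profiles of miR-23a, miR-23b, miR-27a and miR-27b were thus each nearer to some miRNAs of other families than to that of the paralogue. The median distance over the 119 candidates was 0.542 from miR-23a, 0.463 from miR-23b, 0.386 from miR-27a and 0.384 from miR-27b. Each paralogue pair was thus closer than these medians. The distances also hold the added batch 2 term, which differs between paralogues, and they were not computed on raw values. All profiles share the same arrays and scaling, so these distances are a description.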

How the data were processed

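The authors deposited log2 values scaled so that each array has the same total miRNA signal, per the labels, with a floor of 3 shared by 46.8% of values. They also deposited raw bead fluorescence intensity, not normalized per the file headers, and a p-value and false discovery rate for 168 probes. Upstream tools are not stated there. Summed deposited signal was 401283 to 402143 on batch 1 arrays and 355655 to 362039 on batch 2 arrays. The deposited columns of the 5 untreated mice each equal a raw column of another untreated mouse, so untreated values were not paired between the tables, and groups are unaffected.

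After 12 control rows were left out, 379 of 582 probes exceeded the floor in 3 or more of the 8 animals and were tested with limma 3.58.1 in R 4.3.3 (lmFit and eBayes, group as the term, two-sided, Benjamini-Hochberg, threshold 0.05). The 2 arrays of 5-FU animal 1 were averaged and counted as 1 animal, since batches are not biological replicates per the labels. Pairs of members were compared by exact permutation in Python 3.11.15, and profiles by root mean square difference. The limma step was tested on simulated data. Raw values, less the background well of their batch, were rescaled to an equal total, by quantiles and to control beads. An equal total per bead pool, less the water wells throughout, was chosen after seeing the data. Other alternatives covered batch, filters, the methods' t-test, single animals and the replicate block. Lists of marker and companion miRNAs, the members and the rule for named miRNAs (members, probes of their precursors, seed relatives, companions that passed and miR-223, up to 4 markers per list, the 3 nearest profiles) were chosen with earlier results of these data known. No column was left without a sample. Names without a mouse-named probe (miR-29a, miR-424, miR-199a-3p, miR-199b and miR-133a) were not analysed here.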

Additional observations from a re-analysis of the deposited data

Results flagged for a closer look

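Single untreated mice lay far from the other 4 in 5 of 60 sets of values checked, and chance alone gives about 1 in 20. In untreated animal 3, miR-30c was lowest at 12.01, miR-19b was lowest at 12.10, and the difference of miR-24 minus miR-27b was lowest at 1.03. In untreated animal 2, the difference of miR-23a minus miR-24 was highest at 0.59. In untreated animal 1, the stromal miRNA miR-152 was lowest at 8.38. miR-30c and miR-19b are among the nearest profiles of miR-23a and miR-27a. Untreated animal 3 is the mouse whose constant for the first bead pool stood apart.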

How the results depend on the processing

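Values are log2 changes after 5-FU, or shifts of a difference between 2 members. For miR-23a the change passed with 5-FU animal 1 from batch 2 only (0.37), with deposited values at equal totals (0.47) and median centred (0.80), and turned with raw equal totals (-0.013), per bead pool (-0.022) and quantiles (-0.081). miR-23b turned with batch as a term and within batch 1 (-0.010 each), with raw equal totals (-0.034) and per bead pool (-0.042). miR-24 turned with deposited equal totals (0.057) and median centring (0.39). miR-27a turned with median centring (0.29) and passed with raw equal totals (-0.31), per bead pool (-0.32) and quantiles (-0.25). miR-27b no longer passed with batch as a term or within batch 1 (-0.33 each), median centred (-0.19), by exact permutation with adjustment over all probes (-0.66), or with raw control beads (-0.13), equal totals (-0.20), per bead pool (-0.20) and quantiles (-0.11). The cause of these differences was not tested. Batch as a term and within batch 1 are the same contrast, which rests on 1 treated mouse.

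The number of members called upward was 1 with 5-FU animal 1 from batch 2 only, deposited equal totals and median centring. By limma the number called downward was 0 with batch as a term and within batch 1 (1 at an unadjusted p under 0.05 in each), median centred and with raw control beads (0 unadjusted in each). By exact permutation it was 0 (1 unadjusted). Against 154 probes called in the main comparison, limma called 95 with 5-FU animal 1 from batch 1 only, 37 with batch as a term, 12 within batch 1, 88 above log2 7, 97 with raw equal totals, 61 per bead pool, 95 with quantiles and 9 with control beads. Exact permutation called 0 (189 at an unadjusted p under 0.05), since its smallest p, 0.0357, became 0.0716 after adjustment over 379 probes. Calls upward and downward were 59 and 95 in the main comparison, 118 and 55 median centred, 76 and 76 at deposited equal totals, 29 and 68 with raw equal totals, 41 and 54 with quantiles and 30 and 31 per bead pool.

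Shifts of pairs that passed in the main comparison did not pass in 6 settings. Within batch 1 the exact test could not pass, since 1 treated mouse against 5 untreated ones allows only 6 assignments. Shifts are in the order 5-FU animal 1 from batch 1 only, within batch 1, raw equal totals, per bead pool, quantiles and control beads. They were 0.22, 0.10, 0.021, 0.020, -0.18 and 0.021 for miR-23a minus miR-23b, and 0.49, 0.31, 0.30, 0.30, 0.17 and 0.30 for miR-23a minus miR-27a. They were 0.91, 0.42, 0.18, 0.17, 0.034 and 0.18 for miR-23a minus miR-27b, and 0.28, 0.21, 0.28, 0.28, 0.36 and 0.28 for miR-23b minus miR-27a. They were 0.69, 0.32, 0.16, 0.15, 0.22 and 0.16 for miR-23b minus miR-27b, and 0.11, 0.14, 0.12, 0.12, 0.15 and 0.12 for miR-24 minus miR-27a. They were 0.53, 0.25, 0.0059, -0.00083, 0.018 and 0.0059 for miR-24 minus miR-27b, and 0.42, 0.11, -0.12, -0.12, -0.14 and -0.12 for miR-27a minus miR-27b. miR-23a minus miR-24 passed with 5-FU animal 1 from batch 2 only (0.44).

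Leaving out each animal in turn gave 0.26 to 0.40 for miR-23a, 0.03 to 0.13 for miR-23b, -0.14 to -0.04 for miR-24, -0.23 to -0.15 for miR-27a and -0.77 to -0.56 for miR-27b, which passed each time. Members called upward were 0 to 1, downward 1 to 2, and probes called 95 to 168. For pairs the ranges were 0.20 to 0.27 for miR-23a minus miR-23b, 0.30 to 0.49 for miR-23a minus miR-24, 0.42 to 0.59 for miR-23a minus miR-27a, 0.83 to 1.15 for miR-23a minus miR-27b, 0.10 to 0.22 for miR-23b minus miR-24, 0.21 to 0.31 for miR-23b minus miR-27a, 0.63 to 0.88 for miR-23b minus miR-27b, 0.076 to 0.12 for miR-24 minus miR-27a, 0.50 to 0.66 for miR-24 minus miR-27b and 0.41 to 0.57 for miR-27a minus miR-27b. With 7 animals the exact test cannot pass, so these p-values say nothing on stability.

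The animals share only a number. With the replicate block over animals 1 to 3, miR-27b was at -0.65 and still passed, miR-23a was at 0.33 and did not pass, and 52 probes were called.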
